A study of Mus musculus with 6 samples.

Results

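Interferon-stimulated genes were followed in CD11b+ cells that had been sorted from mouse spleen by flow cytometry and profiled by bulk RNA sequencing. The set was a list of 37 gene symbols, chosen by name with earlier results of these data known, and all 37 were found among the 55335 genes of the count table. All 37 also passed the filter on low counts, which left 14849 genes. The list was divided into 12 type I leaning genes (Ifit, Oas and Oasl, Mx and Rsad2), 9 gamma leaning genes (Gbp, Iigp1, Irf1 and the Irgm genes, among them Igtp, whose product is the third Irgm protein) and 16 genes that both kinds of interferon are known to induce or that the rule put on neither side, called shared here. The 6 libraries came from wild-type mice and formed 2 groups of 3 biological replicates. MI mice had a myocardial infarction, and MI+RDN mice had the infarction and renal denervation, which interrupts the nerves of the kidney. Every animal carried an infarct, so the comparison is between denervated and non-denervated infarcted mice. The sources used here do not give strain, age, the time after infarction or whether a replicate was a single mouse or a pool.

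Type I interferons (the alpha and beta families) bind the IFNAR receptor, whose kinases JAK1 and TYK2 activate a complex with STAT2 and IRF9. This complex binds the interferon-stimulated response element in the promoters of antiviral genes. Interferon gamma, made mainly by NK and T cells, binds the IFNGR receptor and acts on promoters with the gamma-activated site. Irf1 is an early gamma target. The guanylate-binding proteins (Gbp) and Iigp1, one of the immunity-related GTPases (Irgm, Igtp, Iigp1), attack the vacuoles of intracellular microbes. Irgm1 and Irgm2 regulate the other GTPases of that family. Most of these genes answer to both interferons to some degree, which is why the classes are called leaning. Neutrophils, monocytes, macrophages and dendritic cells, all of which a CD11b gate can hold, carry both receptors.

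The promoters were examined for both elements, since they are what the classes rest on in textbook terms and were not used to choose the members. RefSeq promoters (build GRCm38.p6, 250 bases before to 50 after the transcript start) were found by symbol for 28 of the 37 members. The core of the response element was searched on both strands as GAAA, any 2 bases and GAAA again, and the core of the gamma-activated site as TTCNNNGAA, where N is any base, which reads the same on both strands. Overlapping matches were counted separately. The response element core occurred in 19 of the 28 members' promoters (67.9%), against 3.99% of the 27025 genes with a promoter in that table. The gamma-activated site core occurred in 9 of 28 (32.1%), against 9.55% of all genes, and both occurred in 7 of 28 (25.0%), against 0.614%. Among gamma leaning members 7 of 8 held the response element core, 5 of 8 the gamma-activated site core and 4 of 8 both. Among type I leaning members those counts were 6 of 9, 2 of 9 and 1 of 9, and among shared members 6 of 11, 2 of 11 and 2 of 11. A match describes letters in this window and is not a measured binding site.

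The stretches below carry these matches for members with the largest fold changes of their class, for 2 pairs of close copies, and for Irf1 as the early gamma target. Capitals mark the response element core or the gamma-activated site core, and each stretch runs 5′ to 3′ on the strand of the gene, upstream of its start.
Ifit1: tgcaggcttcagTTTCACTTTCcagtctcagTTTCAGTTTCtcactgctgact
Ifit3: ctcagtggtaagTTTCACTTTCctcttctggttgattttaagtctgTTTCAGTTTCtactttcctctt
Ifit3b: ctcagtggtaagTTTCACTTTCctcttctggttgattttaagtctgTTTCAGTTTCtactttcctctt
Isg15: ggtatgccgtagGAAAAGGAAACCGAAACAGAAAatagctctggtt
Gbp2: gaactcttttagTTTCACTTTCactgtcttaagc
Gbp7: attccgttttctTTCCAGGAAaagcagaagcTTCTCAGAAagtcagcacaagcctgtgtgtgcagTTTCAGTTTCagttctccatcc
Irgm2: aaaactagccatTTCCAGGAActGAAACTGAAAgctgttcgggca
Igtp: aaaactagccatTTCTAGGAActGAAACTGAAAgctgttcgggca
Irf1: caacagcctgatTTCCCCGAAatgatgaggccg
In GRCm38.p6 they lie at chr19:34640773-34640825 (+ strand), chr19:34583361-34583428 (+ strand), chr19:34607757-34607824 (+ strand), chr4:156200863-156200908 (- strand), chr3:142620592-142620625 (+ strand), chr3:142530218-142530304 (+ strand), chr11:58214890-58214934 (+ strand), chr11:58199499-58199543 (+ strand) and chr11:53769912-53769944 (+ strand), in the order printed. Ifit1, Ifit3 and Ifit3b each held 2 response element cores in reverse orientation, whose first bases were 19 bases apart in Ifit1 and 34 bases apart in Ifit3 and Ifit3b. The printed Ifit3 and Ifit3b stretches were identical over 68 of 68 bases. Isg15 held 3 overlapping cores in one run. Irgm2 and Igtp had the same arrangement, a gamma-activated site core that began 11 bases before a response element core, and were identical at 44 of 45 bases. Gbp2 held only a response element core, Gbp7 held 1 of these and 2 gamma-activated site cores, and Irf1 held only the gamma-activated site core.

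**Figure D1:**
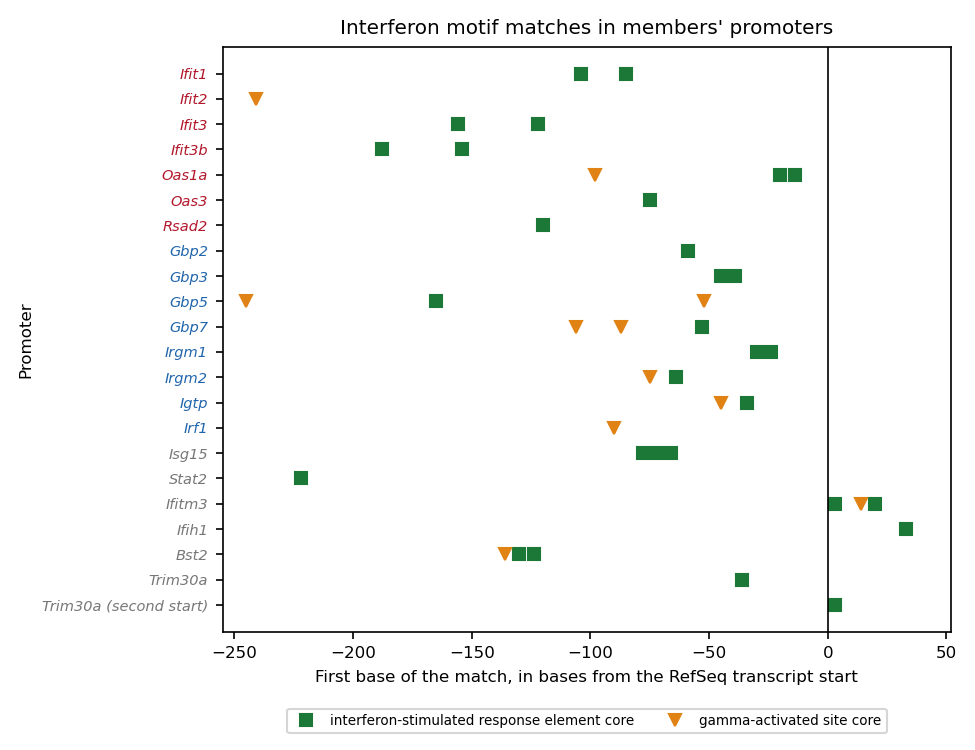
Position of each motif match in the members' RefSeq promoters, with the first base of the match in bases from the transcript start on the horizontal axis and 1 promoter per row (gene names in red for type I leaning, blue for gamma leaning, grey for shared). Squares are the response element core and triangles the gamma-activated site core, and 21 genes with a match of either kind are shown. Gamma leaning rows hold triangles more often than type I leaning rows (5 of 8 against 2 of 9 promoters), and squares more often too (7 of 8 against 6 of 9).

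Levels are CPM, the counts of a gene relative to the library total after TMM scaling. The libraries held 21663440 to 28013900 counts. Itgam, which encodes the CD11b used for the sort, stood at 1133 ± 150.2 CPM in MI and 1598 ± 95.2 CPM in MI+RDN (SD, n = 3). The myeloid gene Lyz2 stood at 9344 ± 489 CPM in MI and 10070 ± 1891 CPM in MI+RDN (SD, n = 3), and Tyrobp and Cd68 were also present in every library. Per kilobase of exon, the member with the highest mean level over the 6 libraries was Ifitm3 at 1204 CPM per kb, followed by Ifi27l2a at 515, Trim30a at 145 and Oasl2 at 144 CPM per kb. The lowest were Iigp1 at 0.347 and Ifi44 at 0.473 CPM per kb.

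Comparing MI+RDN with MI asks whether denervation altered the interferon program of splenic myeloid cells after infarction. No member passed the test at this sample size. By edgeR's quasi-likelihood test with Benjamini-Hochberg adjustment over all genes at 0.05, 0 of 37 members were called, against 1.01% of all tested genes (150 of 14849; 0.296% higher and 0.714% lower). The members' adjusted p ran from 0.0984 to 0.983. At an unadjusted p under 0.05 there were 11 members with higher values and 0 with lower, against 9.83% and 10.1% of all tested genes. The fitted fold changes leaned one way, with 34 of 37 above 0, against 51.0% of all tested genes, with a median log2 fold change of 0.41, against 0.0080 for all tested genes. Groups without overlap and with higher MI+RDN values were about as frequent as elsewhere: 5 members (13.5%) had 3 MI+RDN values above all MI values, against 12.4% of all tested genes. The reverse was seen in 0 members, against 13.7% of all tested genes. The members varied together across the libraries, so these counts are not 37 separate observations. In bulk RNA, more cells of an interferon-rich type and more of these transcripts per cell cannot be told apart.

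**Figure D2:**
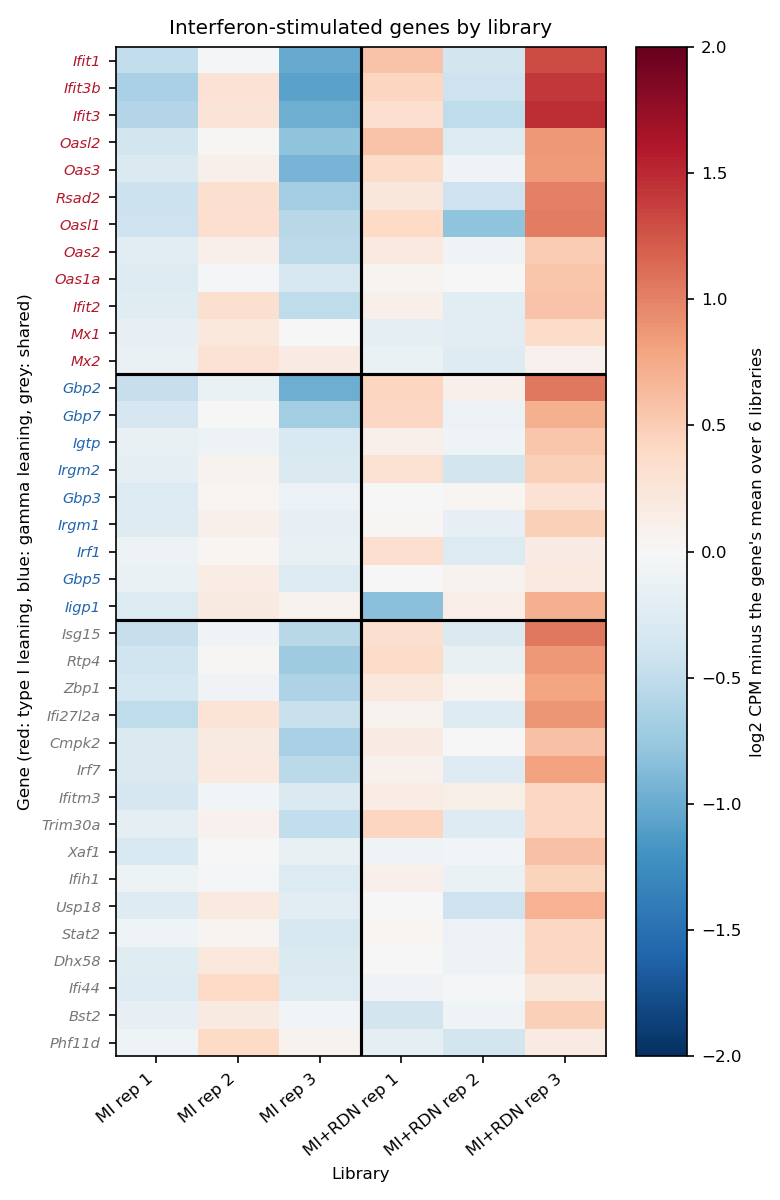
Level of each of the 37 genes (rows) in each of the 6 libraries (columns), as log2 CPM minus the mean of that gene over the 6 libraries; red is above and blue below that mean. MI+RDN replicate 3 was the highest library for 32 of 37 genes and MI replicate 2 was the highest MI library for 37 of 37.

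The order of the libraries was shared by almost the whole list. MI+RDN replicate 3 was the highest of the 6 libraries for 32 of 37 members, against 15.0% of all tested genes. Within MI+RDN it was the highest for 35 of 37 (29.9% of all tested genes), and replicate 2 was the lowest for 31 of 37 (35.3%). Within MI, replicate 2 was the highest for 37 of 37 members (30.6% of all tested genes) and replicate 3 the lowest for 26 of 37 (37.6%). For 31 of 37 members MI+RDN replicate 2 stood below MI replicate 2, so the groups overlapped through these 2 libraries. As the mean over genes of log2 CPM relative to each gene's 6-library mean, the 37 members stood at -0.29, 0.12 and -0.43 in MI replicates 1 to 3 and 0.13, -0.18 and 0.65 in MI+RDN replicates 1 to 3. Replicate 3 exceeded replicate 2 of MI+RDN by a median of 1.60-fold over the members, from 1.09-fold in Gbp5 to 3.97-fold in Ifit3, where the median over all tested genes was 0.995. That span within a group was larger than the fitted difference between the groups.

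**Figure D3:**
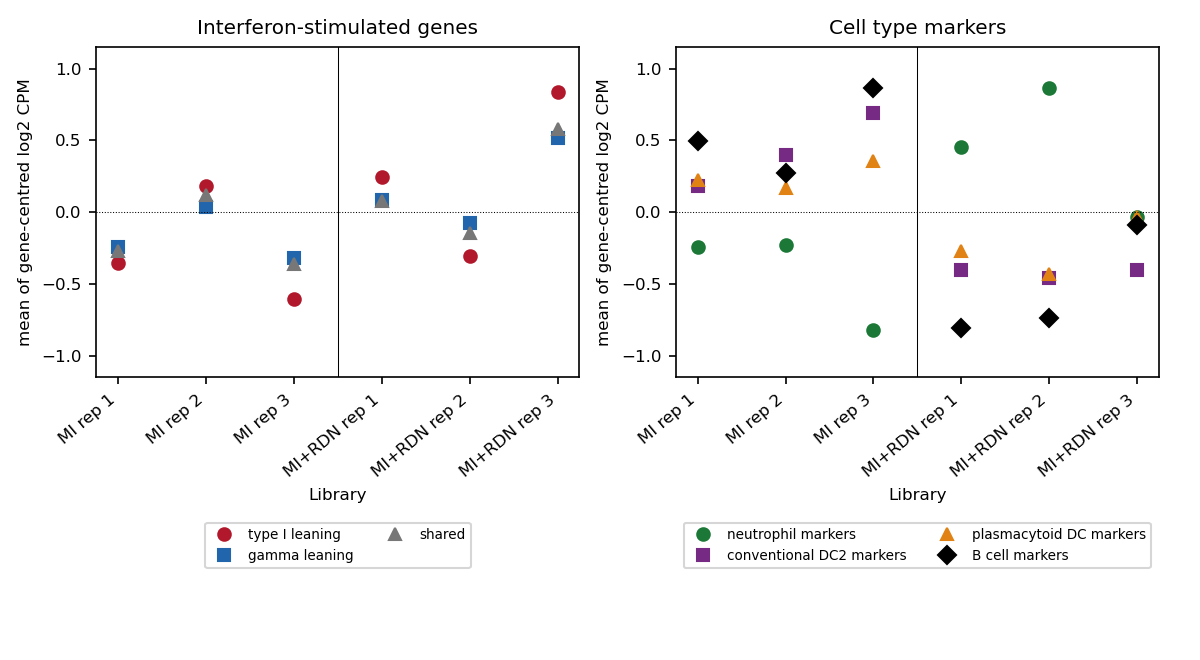
Mean over genes of the gene-centred log2 CPM in each library, for the 3 classes of interferon-stimulated genes (left) and for 4 lists of cell type markers (right); each point is 1 library. The 3 interferon classes are each highest in MI+RDN replicate 3 and lowest in MI replicate 3, and the neutrophil markers are highest in MI+RDN replicate 2.

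Sensors and transcription factors among the 37 include Zbp1, Ifih1, Dhx58, Stat2, Irf7 and Irf1. None of those named passed, and the mean level of each was higher in MI+RDN. Zbp1, a sensor of Z-form nucleic acid that can trigger necroptosis, stood at 106, 129 and 88.1 CPM in MI replicates 1 to 3 and 158, 141 and 234 CPM in MI+RDN replicates 1 to 3. All 3 MI+RDN libraries were above all MI libraries, with a log2 fold change of 0.72, 95% interval 0.23 to 1.21 (edgeR, Benjamini-Hochberg adjusted p = 0.124). The cytosolic RNA sensor MDA5, encoded by Ifih1, stood at 85.8 ± 6.95 CPM in MI and 105 ± 21.6 CPM in MI+RDN (SD, n = 3), and Dhx58, which encodes the related regulator LGP2, at 67.5 ± 13.5 CPM in MI and 78.2 ± 15.2 CPM in MI+RDN (SD, n = 3). Stat2, a transcription factor of type I signalling, had a log2 fold change of 0.24 (edgeR adjusted p = 0.438). Irf7, the transcription factor that amplifies interferon alpha production, stood at 297 ± 79.2 CPM in MI and 408 ± 159 CPM in MI+RDN (SD, n = 3) with overlapping groups (0.46, edgeR adjusted p = 0.417). Irf1, the gamma leaning transcription factor, was the most abundant gamma leaning member per kb at 80.3 CPM per kb and stood at 296, 323 and 284 CPM in MI replicates 1 to 3 and 398, 260.3 and 355 CPM in MI+RDN replicates 1 to 3. Its highest and lowest values were both in MI+RDN, with a log2 fold change of 0.17, 95% interval -0.20 to 0.53 (edgeR, Benjamini-Hochberg adjusted p = 0.593).

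Ifit genes encode proteins that bind foreign RNA ends and block its translation. They had the largest median fold change of the type I leaning families. Ifit1 stood at 53.7, 74.0 and 37.4 CPM in MI replicates 1 to 3 and 113, 58.5 and 186 CPM in MI+RDN replicates 1 to 3. MI+RDN replicate 2 lay between the MI values, and the fit gave a log2 fold change of 1.11, 95% interval 0.18 to 2.05 (edgeR, Benjamini-Hochberg adjusted p = 0.183). Ifit3, chosen after its values were seen for its ratio between MI+RDN replicates 3 and 2, stood at 101, 182 and 76.7 CPM in MI replicates 1 to 3 and 192, 107 and 423 CPM in MI+RDN replicates 1 to 3, with a log2 fold change of 1.01, 95% interval -0.15 to 2.16 (edgeR, Benjamini-Hochberg adjusted p = 0.308). Its neighbour Ifit3b, a close copy with which reads may be shared, followed it with a CPM ratio to Ifit3 of 0.439 to 0.504 over the 6 libraries. Ifit2 had a smaller fold change, 0.29 on the log2 scale (edgeR adjusted p = 0.564).

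The Oas genes encode enzymes that make short oligoadenylates, the activator of the RNA-degrading RNase L, and the Oasl genes encode related proteins. All 5 had positive fold changes, from 0.42 to 0.81 on the log2 scale. Oasl2, the most abundant type I leaning member per kb, stood at 658, 861 and 485 CPM in MI replicates 1 to 3 and 1262, 703 and 1547 CPM in MI+RDN replicates 1 to 3. MI+RDN replicates 1 and 3 were above every MI library and replicate 2 was not, with a log2 fold change of 0.81, 95% interval 0.10 to 1.52 (edgeR, Benjamini-Hochberg adjusted p = 0.201). Oas3 showed the same arrangement at 328, 432 and 209 CPM in MI replicates 1 to 3 and 516, 377 and 722 CPM in MI+RDN replicates 1 to 3, with a log2 fold change of 0.74, 95% interval 0.040 to 1.43 (edgeR, Benjamini-Hochberg adjusted p = 0.229). Oas1a was the only type I leaning member whose groups did not overlap, at 119, 141 and 114 CPM in MI replicates 1 to 3 and 148, 142 and 210.0 CPM in MI+RDN replicates 1 to 3. Its fit gave a log2 fold change of 0.42, 95% interval 0.037 to 0.80 (edgeR, Benjamini-Hochberg adjusted p = 0.213). Oas2 (0.42, edgeR adjusted p = 0.280) and Oasl1 (0.55, edgeR adjusted p = 0.513) overlapped between groups.

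The Mx genes, which encode dynamin-like GTPases that trap viral ribonucleoproteins, had the only fold changes below 0 in the type I leaning class. Mx1 stood at 69.7 ± 9.46 CPM in MI and 69.2 ± 16.5 CPM in MI+RDN (SD, n = 3), with a log2 fold change of -0.0096 and a 95% interval of -0.41 to 0.39. Mx2 was 16.6 ± 2.47 CPM in MI and 14.3 ± 1.80 CPM in MI+RDN (SD, n = 3), with a log2 fold change of -0.22 and an interval of -0.58 to 0.15. Mx1 turned above 0 when MI replicate 2, MI+RDN replicate 1 or MI+RDN replicate 2 was left out. Rsad2, which encodes the antiviral enzyme viperin, and its neighbour Cmpk2, a mitochondrial nucleotide kinase of the shared class, had log2 fold changes of 0.59 and 0.49 (edgeR adjusted p = 0.419 and 0.271).

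**Figure D4:**
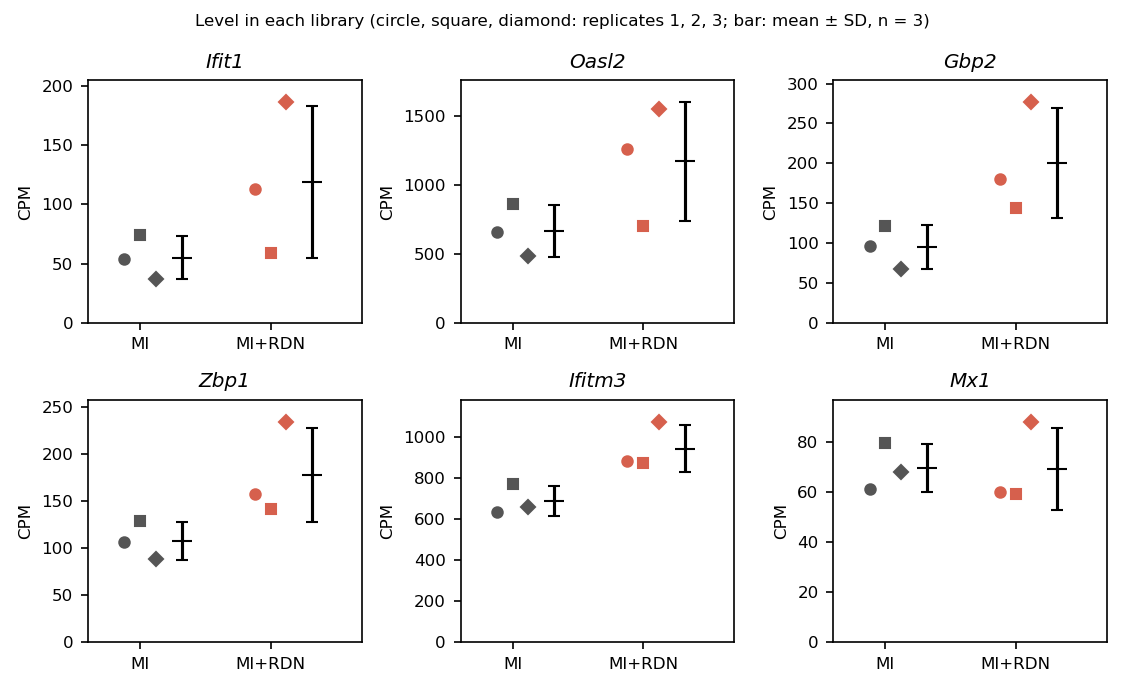
CPM in each library for 6 of the genes, with MI in grey, MI+RDN in red, circles, squares and diamonds for replicates 1 to 3, and the mean ± SD (n = 3) as a black bar. The groups of Gbp2, Zbp1 and Ifitm3 do not overlap, those of Ifit1, Oasl2 and Mx1 do, and MI+RDN replicate 3 is the highest point in every panel.

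The gamma leaning GTPases held the member with the lowest p of the whole list. Gbp2 stood at 96.5, 122 and 67.4 CPM in MI replicates 1 to 3 and 180.1, 144 and 277 CPM in MI+RDN replicates 1 to 3. The groups did not overlap, with a log2 fold change of 1.07, 95% interval 0.43 to 1.72 (edgeR, Benjamini-Hochberg adjusted p = 0.0984). Gbp7 stood at 69.3, 88.6 and 54.2 CPM in MI replicates 1 to 3 and 117, 80.9 and 144 CPM in MI+RDN replicates 1 to 3, where only MI+RDN replicate 2 lay within the range of MI, with a log2 fold change of 0.69, 95% interval 0.14 to 1.24 (edgeR, Benjamini-Hochberg adjusted p = 0.168). Gbp3 stood at 42.4, 52.9 and 47.7 CPM in MI replicates 1 to 3 and 52.1, 53.1 and 63.4 CPM in MI+RDN replicates 1 to 3, a narrow range with 1 value of MI+RDN just below the highest of MI, and a log2 fold change of 0.24, 95% interval -0.037 to 0.51 (edgeR, Benjamini-Hochberg adjusted p = 0.312). Gbp5 had a log2 fold change of 0.17 (edgeR adjusted p = 0.498). Close copies in the Gbp family may share reads, and the sources used here do not say how such reads were counted. The same holds for the Oas genes and the immunity-related GTPases.

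Of the immunity-related GTPases, Igtp stood at 56.3, 58.1 and 50.6 CPM in MI replicates 1 to 3 and 66.6, 58.5 and 91.6 CPM in MI+RDN replicates 1 to 3, with groups that did not overlap and a log2 fold change of 0.39, 95% interval 0.016 to 0.77 (edgeR, Benjamini-Hochberg adjusted p = 0.235). Irgm1 and Irgm2, which regulate the other GTPases of the family, stood at 139 ± 19.0 CPM in MI and 163 ± 38.4 CPM in MI+RDN (SD, n = 3) and at 106 ± 14.0 CPM in MI and 132 ± 36.8 CPM in MI+RDN (SD, n = 3). Their log2 fold changes were 0.23 and 0.31, with edgeR adjusted p of 0.494 and 0.438. Iigp1, an effector that coats microbial vacuoles, was at 1.91 ± 0.372 CPM in MI and 2.13 ± 1.30 CPM in MI+RDN (SD, n = 3), with an interval of -0.93 to 1.25 on the log2 scale.

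Of the shared effectors, Ifitm3, which encodes a membrane protein that blocks virus entry by endosomes, had the highest level per kb of exon and stood at 637, 770.2 and 659 CPM in MI replicates 1 to 3 and 886, 871 and 1075 CPM in MI+RDN replicates 1 to 3. The groups did not overlap, with a log2 fold change of 0.46, 95% interval 0.15 to 0.76 (edgeR, Benjamini-Hochberg adjusted p = 0.125). Isg15, a ubiquitin-like modifier, stood at 28.7, 37.4 and 26.7 CPM in MI replicates 1 to 3 and 49.5, 32.2 and 82.9 CPM in MI+RDN replicates 1 to 3, with a log2 fold change of 0.83, 95% interval 0.10 to 1.55 (edgeR, Benjamini-Hochberg adjusted p = 0.201), and the groups overlapped through MI+RDN replicate 2. Usp18, the protease that removes ISG15 and also brakes the type I receptor, had a log2 fold change of 0.25 (edgeR adjusted p = 0.644). Rtp4, an interferon-induced chaperone of receptor transport, stood at 129.8, 173 and 104 CPM in MI replicates 1 to 3 and 221, 154 and 312 CPM in MI+RDN replicates 1 to 3, with a log2 fold change of 0.75, 95% interval 0.13 to 1.38 (edgeR, Benjamini-Hochberg adjusted p = 0.180).

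The other shared members were Trim30a, a tripartite motif protein (0.41 on the log2 scale), Ifi27l2a (0.50), Xaf1, a promoter of apoptosis (0.32), Ifi44 (0.069), Bst2, the tether that holds budding virus at the cell surface (0.060), and Phf11d (-0.26). Their edgeR adjusted p ran from 0.344 to 0.917. Phf11d was, with Mx1 and Mx2, one of the 3 members with a fold change below 0, and stood at 19.4 ± 3.54 CPM in MI and 16.3 ± 3.15 CPM in MI+RDN (SD, n = 3).

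**Figure D5:**
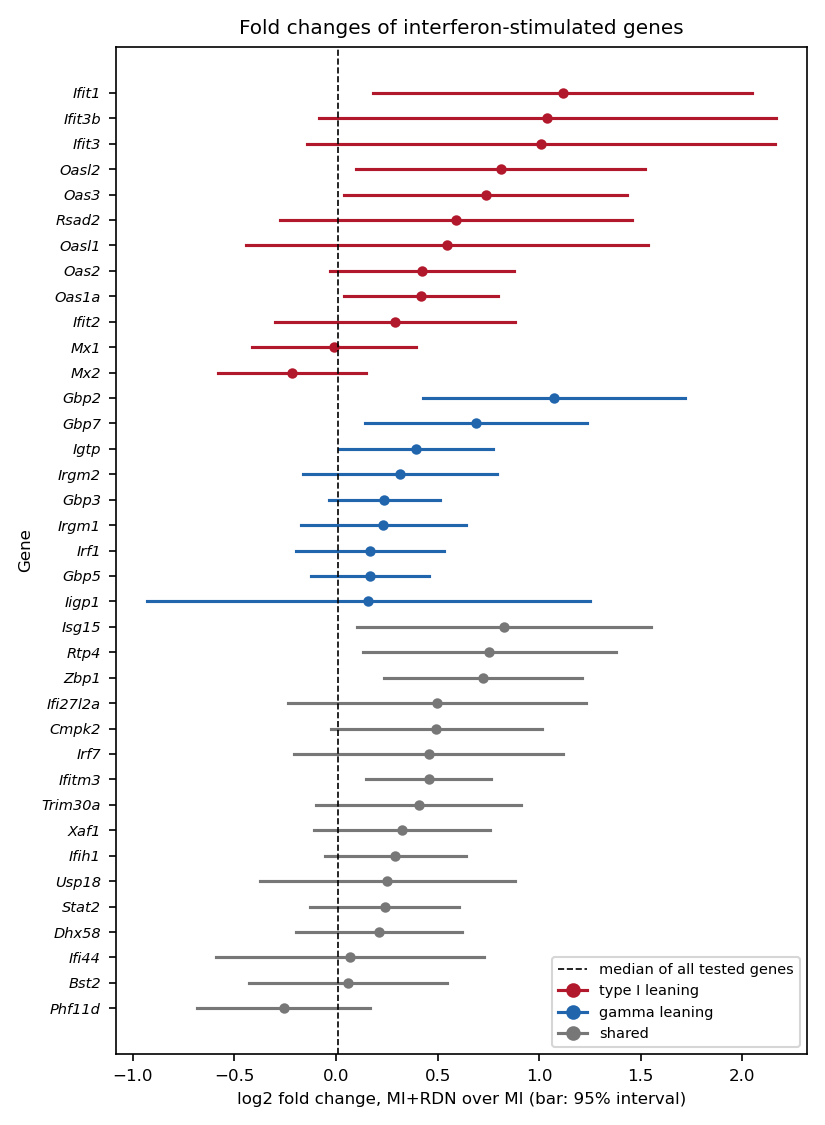
Log2 fold change of MI+RDN over MI for each of the 37 genes (points) with its 95% interval (bars), grouped by class and sorted within it; the dashed line is the median of all tested genes. The intervals of 11 genes exclude 0 before adjustment, and none of the 37 passed after adjustment over all genes.

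Set side by side, the type I leaning class had a median log2 fold change of 0.57 (10 of 12 above 0, range -0.22 to 1.11), the gamma leaning class 0.24 (9 of 9 above 0, 0.16 to 1.07) and the shared class 0.37 (15 of 16 above 0, -0.26 to 0.83). No test was made between the classes. Each class spanned most of the range of the others: Gbp2 of the gamma leaning class matched Ifit1 in fold change, and Mx1 and Mx2 of the type I leaning class lay below all gamma leaning members. By family the medians were 1.02 for 4 Ifit genes, 0.55 for 5 Oas and Oasl genes, -0.11 for 2 Mx genes, 0.46 for 4 Gbp genes and 0.27 for 4 immunity-related GTPases. The type I leaning class stood at -0.35, 0.18 and -0.60 in MI replicates 1 to 3 and 0.24, -0.30 and 0.83 in MI+RDN replicates 1 to 3, and the gamma leaning class at -0.24, 0.039 and -0.32 in MI replicates 1 to 3 and 0.086, -0.075 and 0.51 in MI+RDN replicates 1 to 3. These 2 classes put the 6 libraries in the same order, with a pooled within-group SD of 0.49 for the type I leaning and 0.25 for the gamma leaning class on that log2 scale.

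Without MI+RDN replicate 3 the medians were 0.22 for type I leaning, 0.12 for gamma leaning and 0.081 for shared members, 30 of 37 fold changes were above 0, and the groups did not overlap in 5 members higher and 3 lower in MI+RDN (16.8% and 19.2% of all tested genes). Without MI replicate 2 the type I leaning median was 0.91 and 25 of 37 members had groups that did not overlap (16.8% of all tested genes). Without MI+RDN replicate 2 it was 0.88, and 19 of 37 members had groups that did not overlap (20.0% of all tested genes). MI replicate 2 was the highest MI library for 37 of 37 members, and MI+RDN replicate 2 the lowest of its group for 31 of 37. Leaving either out therefore favoured a higher count among the members, and the shares of all tested genes are no like background. Each of these 3 libraries moved the type I leaning median by over 1.5 times. With any 1 library left out 0 of 37 members passed. Only 0 to 67 of 15201 to 15295 tested genes passed in those settings, so that 0 says little about the members. Without scaling factors the median of all tested genes was -0.13 and those of the classes were 0.43, 0.10 and 0.23, in the order type I leaning, gamma leaning and shared. In that setting Ifi44 and Bst2 turned below 0.

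DESeq2's Wald test, on the same counts, called 6 members, all higher in MI+RDN: Oasl2, Gbp2, Gbp7, Ifitm3, Zbp1 and Rtp4. The same test called 3.62% of all tested genes as higher. For Gbp2 the log2 fold change over all alternatives was 0.75 to 1.29, with an adjusted p of 0.00163 to 0.276. For Ifitm3 it was 0.32 to 0.54, with an adjusted p of 0.0164 to 0.305, and for Zbp1 0.45 to 0.87, with an adjusted p of 0.0144 to 0.336. Limma-voom called 0 members, against 111 of 14849 tested genes (29 higher and 82 lower). At an unadjusted p under 0.05 by limma-voom there were 9 members with a positive fold change, against 2961 of all tested genes in either direction.

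Transcripts of the interferons themselves were close to absent. Of 20 listed ligand genes, 18 had 0 counts in all 6 libraries, among them Ifnb1 and every listed Ifna gene. Ifnab had 0 counts in each MI library and 4, 3 and 4 counts in MI+RDN replicates 1 to 3, too few to be tested. A count of 0 allows up to 3 counts, or 0.107 to 0.138 CPM in a library of this depth, for counting error only. Ifng, which encodes interferon gamma, was the only ligand tested, at 1.38 ± 0.442 CPM in MI and 1.01 ± 0.308 CPM in MI+RDN (SD, n = 3) (edgeR adjusted p = 0.550). Receptor genes were well covered. Ifnar1 and Ifnar2, the chains of the type I receptor, stood at 208 ± 8.70 CPM in MI and 183 ± 29.4 CPM in MI+RDN (SD, n = 3) and at 153 ± 12.3 CPM in MI and 148 ± 9.21 CPM in MI+RDN (SD, n = 3). Ifngr1 and Ifngr2, the chains of the gamma receptor, stood at 536 ± 29.7 CPM in MI and 533 ± 21.3 CPM in MI+RDN (SD, n = 3) and at 202 ± 17.7 CPM in MI and 209.6 ± 26.7 CPM in MI+RDN (SD, n = 3). None of these 4 passed, and their log2 intervals ran from -0.47 (lower limit of Ifnar1) to 0.33 (upper limit of Ifngr2). Ifnlr1, the specific chain of the lambda receptor, stood at 43.7, 39.4 and 24.6 CPM in MI replicates 1 to 3 and 62.5, 67.6 and 54.1 CPM in MI+RDN replicates 1 to 3, with groups that did not overlap and did not pass (edgeR adjusted p = 0.0991).

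Of the genes that carry the signal inside the cell, the receptor kinases Jak1 and Tyk2 had log2 fold changes of 0.087 and -0.028 (edgeR adjusted p = 0.754 and 0.883). Irf9, the DNA-binding part of the type I complex, had a log2 fold change of 0.20 (edgeR adjusted p = 0.408). Of 6 brakes on the signal 0 passed, with Socs3, an inhibitor of cytokine receptor kinases, at 0.42 and the STAT inhibitor Pias1 at 0.13 (edgeR adjusted p = 0.375 and 0.556).

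Among 13 sensors and inducers upstream of interferon production, 1 fell and 0 rose. Tlr9, the endosomal receptor for unmethylated DNA, stood at 53.1, 52.1 and 52.5 CPM in MI replicates 1 to 3 and 36.1, 32.6 and 37.1 CPM in MI+RDN replicates 1 to 3. All MI+RDN values were below all MI values, with a log2 fold change of -0.58, 95% interval -0.78 to -0.37 (edgeR, Benjamini-Hochberg adjusted p = 0.0401). That call did not hold with any 1 library left out (adjusted p from 0.0599 to 0.131, log2 fold change -0.63 to -0.54) or without the filter on low counts (0.0793). Mavs, the adaptor of the cytosolic RNA sensors, and Irf8, a transcription factor of monocytes and dendritic cells, also had groups that did not overlap but did not pass, with log2 fold changes of -0.46 and -0.45 (edgeR adjusted p = 0.0788 and 0.0783). Irf5 and Tlr3 also had lower MI+RDN values without overlap (-0.18 and -0.64, edgeR adjusted p = 0.323 and 0.149). Myd88, the adaptor of most Toll-like receptors, had higher MI+RDN values without overlap (0.39, edgeR adjusted p = 0.171). The median of the 13 was -0.12, on the other side of 0 from the members. Tlr9 and Irf8 are expressed by B cells and dendritic cells, whose markers are given with the cell type markers, and the part of those cells in the difference was not tested.

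Other interferon-induced genes were counted from lists of type I leaning and gamma leaning genes outside the 37. Of 40 further type I leaning genes 36 were tested, 0 passed, 29 had fold changes above 0, and the median was 0.19. MI+RDN replicate 3 was the highest library for 30 of these 36 and MI replicate 2 the highest MI library for 34. The 2 with the lowest p were Oas1c (0.59, edgeR adjusted p = 0.104) and Ifi203, a member of the nucleic acid sensing Ifi200 family (-0.33, edgeR adjusted p = 0.133). Of 22 further gamma leaning genes 20 were tested, 1 fell and 0 rose, 9 were above 0, and the median was -0.0091. The library order was less shared here. MI+RDN replicate 3 was the highest library for 10 of these 20 (15.0% of all tested genes). MI replicate 2 was the highest MI library for 9 of them (30.6% of all tested genes). The one that fell, at 165, 174 and 211 CPM in MI replicates 1 to 3 and 81.0, 76.5 and 89.1 CPM in MI+RDN replicates 1 to 3, was Ciita, which switches on MHC class II genes (-1.16, edgeR adjusted p = 0.0133), which dendritic and B cells express without interferon. Its call was lost when MI replicate 2 (adjusted p = 0.0736), MI replicate 3 (0.0623) or MI+RDN replicate 1 (0.0885) was left out, with log2 fold changes of -1.19, -1.04 and -1.14. Casp4, the caspase that senses cytosolic lipopolysaccharide, stood at 76.3 ± 13.3 CPM in MI and 122 ± 14.9 CPM in MI+RDN (SD, n = 3) and did not pass (edgeR adjusted p = 0.0717). Within the Gbp family, the 4 members, which all lie on chromosome 3, had fold changes above 0. Of the 5 tested Gbp genes on chromosome 5, 2 were above and 3 below 0, with Gbp6 at 0.77 and Gbp8 at -0.72 on the log2 scale. That split by chromosome was noticed after the values were seen.

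Marker genes of the cell types that the gate could hold also differed between the libraries. Summed over 10 neutrophil markers, levels were 14437 to 22737 CPM in MI and 26422 to 47080 CPM in MI+RDN, with 10 of 10 fold changes above 0, 2 of them past the threshold (Ly6g and Retnlg). As a mean by library these markers stood at -0.24, -0.23 and -0.82 in MI replicates 1 to 3 and 0.45, 0.87 and -0.032 in MI+RDN replicates 1 to 3. Within MI+RDN the replicate with the highest neutrophil mean, replicate 2, had the lowest interferon-stimulated genes. The markers were split, however. MI+RDN replicate 2 was the highest of the 6 libraries for 7 of 10 and the lowest MI+RDN library for 2, Cxcr2 and Csf3r. Within MI, replicate 3 was the lowest in both. Summed over 8 genes listed as conventional DC2 markers, levels were 1763 to 1925 CPM in MI and 1387 to 1541 CPM in MI+RDN. Sirpa held much of those sums, with means of 1047 CPM in MI and 1022 CPM in MI+RDN. The median log2 fold change of the list was -0.79, with 8 of 8 below 0. In 6 of 8 all MI+RDN values lay below all MI values (13.7% of all tested genes). Past the threshold 4 of 8 were lower (Cd209a, Clec10a, Zbtb46 and Kit). Kit, for one, is not specific to these cells. Of 8 plasmacytoid DC markers 6 were tested, with sums of 173 to 178 CPM in MI and 142 to 169 CPM in MI+RDN and 0 past the threshold. Most of those sums came from Tcf4 (mean 74.3 CPM in MI and 62.6 CPM in MI+RDN) and Runx2 (66.2 and 70.8 CPM). The median log2 fold change of the 6 was -0.74, with 1 above and 5 below 0. Siglech, the defining surface lectin of plasmacytoid dendritic cells, stood at 1.06, 1.04 and 0.897 CPM in MI replicates 1 to 3 and 0.539, 0.256 and 0.473 CPM in MI+RDN replicates 1 to 3 and did not pass (edgeR adjusted p = 0.150). Cox6a2 and Klk1 had at most 11 and 24 counts in any library. B cell markers summed to 448 to 690.5 CPM in MI and 228 to 368 CPM in MI+RDN, with 0 of 8 past the threshold. T cell markers summed to 91.2 to 112 CPM in MI and 37.0 to 52.4 CPM in MI+RDN. Of 8 T cell markers 2 were lower past the threshold (Cd4 and Cd3d). In all 8 B cell and all 8 T cell markers every MI+RDN value lay below every MI value (13.7% of all tested genes). The median log2 fold changes were -1.06 for the B cell and -1.19 for the T cell markers. NK cell markers, of a type that makes interferon gamma, summed to 204 to 229.8 CPM in MI and 169.7 to 239 CPM in MI+RDN, with 0 of 8 past the threshold. Of 8 Ly6C-high monocyte markers 4 were above and 4 below 0, with a median log2 fold change of -0.050, and Ly6c2 rose past the threshold. Of 8 Ly6C-low monocyte markers 4 were above and 4 below 0, with a median of -0.10. Among these Pglyrp1 rose past the threshold, and Cx3cr1 (-0.65, edgeR adjusted p = 0.0906) and Treml4 (-0.23, edgeR adjusted p = 0.271) had MI+RDN values below all MI values without passing. Of the macrophage list, 0 of 8 splenic macrophage markers passed, but most were lower in MI+RDN. Their median log2 fold change was -0.54, with 2 above and 6 below 0. In 5 of the 8 all MI+RDN values lay below all MI values, against 13.7% of all tested genes. Without MI replicate 3, or without MI+RDN replicate 1, 0 genes of the whole table passed, these markers included. The part of these cell types in the levels of the interferon-stimulated genes was not tested.

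Members with a response element core in their promoter had a median log2 fold change of 0.42 (n = 19), and members with a promoter in the table and no such core had 0.32 (n = 9). The ranges overlapped, 0.060 to 1.11 and -0.26 to 0.81. The 7 members that held both cores, Oas1a, Gbp5, Gbp7, Irgm2, Igtp, Ifitm3 and Bst2, had a median of 0.39.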

How the data were processed

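RNA of sorted splenic CD11b+ cells went into stranded TruSeq libraries for Illumina sequencing, per the labels' protocols. FastQC 0.11.2, STAR and genome build GRCm39 are named in the submitters' processing notes. The counting tool, its annotation and strand setting, and the treatment of multi-mapped reads were not given in the sources used here. As deposited by the authors, the file holds whole-number counts per Ensembl gene and library, without normalisation.

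Symbols (55154 of 55335 IDs) and exon lengths came by Ensembl ID from a GENCODE annotation of GRCm38. Promoters came from RefSeq by symbol. The main analysis used edgeR 4.0.16 under R 4.3.3. Genes were filtered by filterByExpr, scaled by TMM and tested by quasi-likelihood over all 6 libraries with no covariate, and p-values were adjusted by Benjamini-Hochberg (threshold 0.05). Intervals are 95% from the fit. Library levels use log2(CPM + 0.5). P-values set the difference between the groups against the spread between these libraries, which was estimated with information from all genes. The common biological coefficient of variation was 20.7%. The test was checked on simulated data.

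Members and lists were chosen with earlier results of these data known. Values in every library are given for the 4 members of each class with the lowest p and the most abundant by CPM; of the pathway lists, genes past the threshold, the 2 with the lowest p and fixed genes are named, 1 of which is not reported here. Alternatives were other size factors and filters, DESeq2 1.42.0, limma-voom (limma 3.58.1), robust edgeR, a replicate block and each library left out. Figures used Python 3.11.15 and matplotlib 3.10.9.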

Additional observations from a re-analysis of the deposited data

How the results depend on the processing

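With 3 libraries a group, the fits see large differences in genes of low spread better than moderate ones in genes that vary between replicates, as these do. The number of members past the threshold was 0 under every alternative except DESeq2's Wald test, which gave 6. Over 37 members and 15 alternatives, 547 values stayed on their side of the threshold and 6, the DESeq2 calls, passed it. Fold changes near 0 changed sign: Ifi44 and Bst2 without scaling factors and without MI replicate 1, Mx1 without MI replicate 2 or either of MI+RDN replicates 1 and 2, Ifi44 without MI replicate 3, Iigp1 by limma-voom, and Iigp1, Usp18, Ifi44 and Bst2 without MI+RDN replicate 3. Ifi44 and Iigp1 were not fitted in 1 alternative because their mean is under 5 CPM. The class medians moved by less than their within-group SD under every alternative. Over the libraries left out they ran from 0.22 to 0.91 (type I leaning), 0.12 to 0.35 (gamma leaning) and 0.081 to 0.48 (shared). The number of members whose groups did not overlap, 5 by default, was 3 with upper-quartile factors (10.6% of all tested genes), 3 without scaling factors (5.90%) and 3 of 35 with a minimum mean of 5 CPM (12.4%), and ran from 5 to 25 over the libraries left out (15.8% to 20.0%). The count of all genes past the threshold, 150 by default, was 475 without scaling factors (62 higher and 413 lower, against 44 and 106), 21 without a filter, 290 with the 5 CPM minimum, 1121 by DESeq2, 277 by robust edgeR and 0 to 67 over the libraries left out. EdgeR gave the 0 when MI replicate 3 was left out (2084 genes at unadjusted p under 0.05) and when MI+RDN replicate 1 was (2323 genes). The cause of these moves was not tested. No pairing of the libraries by replicate number was seen: correlations of same-numbered deviations were 0.030, -0.069 and 0.091, and not every library correlated best with its own number. Over all pairs the correlations ran from -0.14 to 0.12. With 3 libraries a group this check cannot decide whether same-numbered libraries shared a batch. With the replicate block 87 genes and 0 members passed (smallest member edgeR adjusted p = 0.198), and Tlr9 did not (edgeR adjusted p = 0.0751). At an unadjusted p under 0.05 in that fit 4 of 37 members were higher. All tested genes were counted only in both directions together (2548 of 14849), so these 2 counts cannot be compared directly.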
